A study of Rattus norvegicus with 31 samples.

Results

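Calmodulin and the kinases it switches on were followed in spinal motor neurons after injury of the cord. The genes were Calm2, Calm3, Camk2a, Camk2b, Camk2d, Camk2g, Camk2n1, Camk4 and Camkk2, and every probe set whose single gene symbol in the platform annotation was one of these 9 names was taken. Of the 9 genes, 7 had such a probe set, which gave 8 probe sets of the 12913 tested, 7 of 9769 genes named singly on the array. Calm2 and Calm3 matched no probe set with a single symbol and were not analysed here, so that the values below concern the kinases and their inhibitor.

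The data were log2 expression summaries of 31 Affymetrix rat expression arrays, each made from the tail motor neurons of 1 adult male Wistar rat. Control animals were uninjured (n = 4). In the other animals the cord was cut through at S2 and a piece of it removed, and they were examined 2 days (Spi-2, n = 6), 7 days (Spi-7, n = 5), 21 days (Spi-21, n = 8) and 60 days (Spi-60, n = 8) later. In all 5 groups the motor neurons had been labelled retrogradely with Fluoro-Gold and were cut by laser from frozen sections of S3 and S4. Their RNA was amplified in 2 rounds before hybridization. The 15 arrays of the uninjured and the early animals belong to the present study, whereas those of Spi-21 and Spi-60 were taken over from an earlier one, so that a late change against Control and the study of origin cannot be told apart. In bulk samples like these, fewer cells of a type and less RNA per cell cannot be told apart either.

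Calmodulin is a small protein that binds calcium entering the cell and then docks onto kinases and other enzymes. CaMKII is a large assembly of alpha, beta, gamma and delta subunits, encoded by Camk2a, Camk2b, Camk2g and Camk2d, which stays active by phosphorylating itself after the calcium signal has passed and modifies channels and synaptic receptors. Camk2n1 encodes a protein inhibitor of CaMKII, while Camkk2 encodes the upstream kinase that switches on CaMKIV, the product of Camk4, which phosphorylates transcription factors such as CREB in the nucleus.

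Promoter sequence was at hand for 5 of the 7 measured genes, as a RefSeq window of 300 bases on assembly GRCr8 (250 bases before a transcription start site and 50 after it). Camk2n1 and Camkk2 had no window and were not searched. The GC box GGGCGG, a short motif of promoters rich in G and C, was searched for on both strands with overlapping matches counted. Camk2g held 9 matches, Camk2b 6 and Camk2d 3, and the windows of Camk2a and Camk4 held none, while 33.1% of all 33469 windows of this length held at least 1. The cAMP response element TGACGTCA, the palindrome that CREB binds, was in none of the 5 windows and in 1.83% of all. The upstream ends of the windows of Camk2g (chr15:3553106-3553237, plus strand) and Camk2b (chr14:85148122-85148194, minus strand) are shown, because these were the CaMKII subunits with a difference in expression below. Each stretch ends at the outermost boundary of the gene record, which lies 118 bases (Camk2g) and 177 bases (Camk2b) upstream of the start site that the window is built on. Capitals mark the GC box on the strand printed.
Camk2g: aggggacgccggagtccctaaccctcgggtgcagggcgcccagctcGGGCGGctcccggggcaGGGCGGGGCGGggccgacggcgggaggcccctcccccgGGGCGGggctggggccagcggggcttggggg
Camk2b: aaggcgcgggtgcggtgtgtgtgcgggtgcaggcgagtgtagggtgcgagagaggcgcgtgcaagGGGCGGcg
The Camk2g run of 132 bases held 4 matches on this strand, of which a pair overlaps, and the Camk2b run of 73 bases held 1. A match is a description of the letters and not of a bound factor.

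Array medians lay between 5.95 and 6.1 (log2) and correlations between arrays between 0.875 and 0.989. The difference between the 3′ and the 5′ control probe set of Gapdh, a measure of how far the amplified RNA reached, averaged 2.01 ± 0.33 in Control (log2, SD over animals). After 2 and 7 days it averaged 2.82 ± 0.36 and 3.01 ± 0.37, and after 21 and 60 days 2.29 ± 0.94 and 3.49 ± 0.35. Each Spi-60 animal, at 2.99 to 3.97, lay above the Control range of 1.8 to 2.5. Of the 11 listed motor neuron markers, 9 were measured, and their mean level per array was 9.9 to 10.27 in Control, 9.77 to 10.31 in the early animals and 9.93 to 10.41 in the late ones. Prph, the neuronal filament peripherin, was called higher at all 4 days and Uchl1, a neuronal ubiquitin hydrolase, at days 21 and 60, while Slc5a7, the choline transporter, was called lower at days 2, 21 and 60. The mean of 9 probe sets for microglia and macrophages was 5.59 to 5.88 in Control, 6.37 to 7.23 and 6.06 to 6.95 after 2 and 7 days, and 5.59 to 7.26 and 5.94 to 7.32 after 21 and 60 days. Of these 9, 4, 1, 3 and 4 passed the test as higher at days 2, 7, 21 and 60. The mean of 7 probe sets for interneurons was 5.98 to 7.15 in Control, 5.69 to 6.38 and 5.66 to 6.52 after 2 and 7 days, and 5.45 to 6.11 and 5.63 to 6.19 after 21 and 60 days, with 2, 0, 3 and 3 called lower. Of 12 probe sets for oligodendrocytes 2, 1, 4 and 1 were called lower at the 4 days, and of 10 for astrocytes and 5 for vessels at most 1 was called in a direction at any day. Late minus early, the contrast that holds most calls of the kinases and their inhibitor below, called 2 motor neuron probe sets higher. These were Slc18a3, the vesicular acetylcholine transporter, with 0.66, and Uchl1 with 0.49 (limma, adjusted p = 0.00432 and 0.00365). The contrast also called 2 for Mbp, the myelin basic protein, higher (0.90 and 0.29; limma, adjusted p = 0.00105 and 0.0251), with 2 other oligodendrocyte sets lower. It called 1 astrocyte set higher and 1 lower, 2 microglia sets higher and 2 lower, and 1 interneuron set lower. Their part in the results below was not tested.

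The calls among the kinases and their inhibitor Camk2n1 lay mainly between the late and the early animals after injury. Camk2n1, Camk2g and Camk2b were higher at days 21 and 60 than at days 2 and 7, by 1.27- to 1.55-fold. At single days against Control the only call was Camk2g, 1.54-fold higher at day 60. Changes were fitted with limma over all 31 arrays, with Benjamini-Hochberg adjustment of p across the 12913 probe sets, and are given as log2 fold changes ± the standard error (SE) of the fit. By the F-test over the 5 groups at a false discovery rate of 0.02, 2 of the 8 probe sets were called, Camk2g and Camk2n1, where 16.2% of all probe sets were. Against Control none of the 8 was called at day 2 (background 8.87%), day 7 (2.59%) or day 21 (16.6%), and 1 was called at day 60, as higher (17.1% in either direction, 7.2% as higher). With days 21 and 60 averaged, Camk2g and Camk2b were called against Control, with 0.62 ± 0.20 and 0.39 ± 0.14 (limma, adjusted p = 0.0276 and 0.045). With days 2 and 7 averaged no member was called, and Camk2n1 came nearest with -0.32 ± 0.11 (limma, adjusted p = 0.0695). The share of all probe sets called in these averages was not counted, so these calls have no background beside them. In the contrast of the mean of days 21 and 60 with the mean of days 2 and 7, 3 of the 8 were called, all as higher late, against a background of 23.3% in either direction and 11% as higher. With 8 probe sets, the counts of the F-test and of the single days are close to or below what the background gives. The late minus early share, 37.5%, lies above its background, but it rests on 3 probe sets and the excess was not tested. The median log2 fold change of the 8 was -0.06, -0.02, 0.18 and 0.09 at days 2, 7, 21 and 60, beside 0, 0, 0.01 and 0 over all probe sets.

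**Figure D1:**
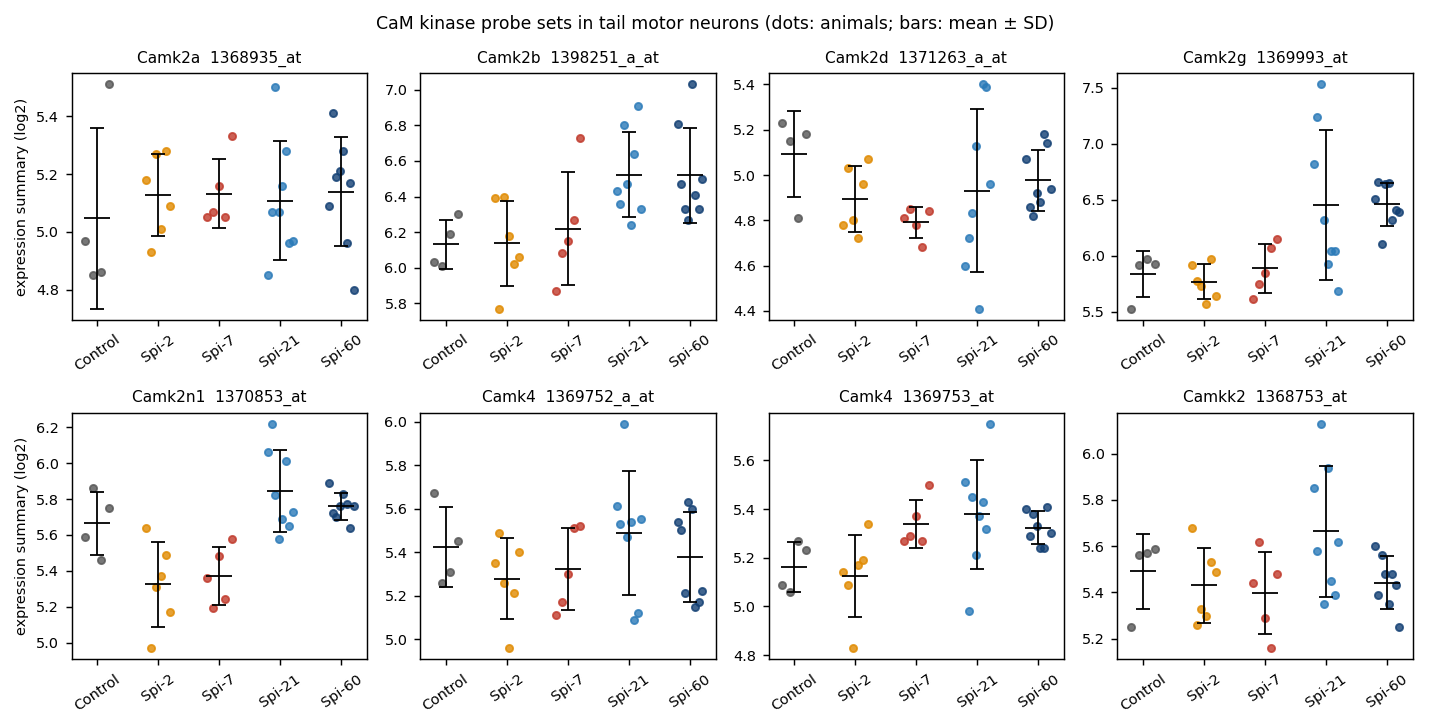
Log2 level of each of the 8 probe sets of the CaM kinases and the inhibitor Camk2n1 (y axis) in the 5 groups (x axis: Control, Spi-2, Spi-7, Spi-21, Spi-60). There is 1 dot per animal, with bars for the mean ± SD. In the Camk2n1 panel 14 of the 16 animals of days 21 and 60 lie above every animal of days 2 and 7, and in the Camk2g panel all 8 Spi-60 animals lie above every Control.

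Camk2g, the gamma subunit of CaMKII, was measured by 1 probe set (1369993_at). Its log2 level in Control was 5.53, 5.92, 5.97 and 5.93. At day 2 the lowest, median and highest of the 6 animals were 5.57, 5.75 and 5.97, and at day 7 the 5 animals had 5.62, 5.75, 5.85, 6.07 and 6.15. These early animals overlapped with Control. At day 21 the lowest, median and highest were 5.69, 6.18 and 7.53, and at day 60 they were 6.11, 6.46 and 6.66. All 8 animals of Spi-60 and 6 of the 8 of Spi-21 lay above the highest Control animal. Complete separation from Control at day 60 was also found for 12.8% of all probe sets. None of the 8 member probe sets was separated at days 2, 7 or 21, where 9.39%, 9.23% and 7.33% of all were. The difference from Control was -0.07 ± 0.23 at day 2 and 0.05 ± 0.24 at day 7 (limma, adjusted p = 0.908 and 0.951). At day 21 the difference was 0.61 ± 0.22 and missed the threshold (limma, adjusted p = 0.0539). It was 0.17 when replicates 1 to 3 were left out (limma, adjusted p = 0.489). These replicates hold the highest Camk2g levels of Spi-21, so leaving them out could only lower the difference. At day 60 Camk2g rose by 0.63 ± 0.22 (limma, adjusted p = 0.0485). Late minus early, the difference was 0.63 ± 0.14 (limma, adjusted p = 0.00232), and 11 of the 16 late animals lay above the highest early animal. Without Spi-21 replicates 1 to 3, a choice that could only lower it, this difference was 0.41 (limma, adjusted p = 0.00208).

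Both the day 21 spread and the day 60 call of Camk2g have limits that belong beside them. Among the Spi-21 animals, replicates 1 to 3 had levels of 6.82 to 7.53 and a Gapdh 3′ to 5′ difference of 2.9 to 3.54, while replicates 4 to 8 had levels of 5.69 to 6.32 and a Gapdh difference of 1.13 to 2.76. With the Gapdh difference as a covariate the day 60 change of Camk2g was -0.01 ± 0.23 (limma, adjusted p = 0.985). The Gapdh ranges of Spi-60 (2.99 to 3.97) and Control (1.8 to 2.5) do not overlap. That value therefore extrapolates a slope fitted over all groups and cannot decide the day 60 change. The late minus early difference was 0.64 ± 0.11 in this fit (limma, adjusted p = 0.000209). The mean Gapdh differences of the early groups, 2.82 and 3.01, lie between those of the late groups, 2.29 and 3.49. The covariate could therefore move the late minus early difference little, and this fit is no check of it. The day 60 call was held in 10 of the 31 fits that left out 1 array. It was lost without any 1 of the 4 Control animals, at 0.52 (limma, adjusted p = 0.159) without replicate 1 and at 0.65 to 0.67 without the others.

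**Figure D2:**
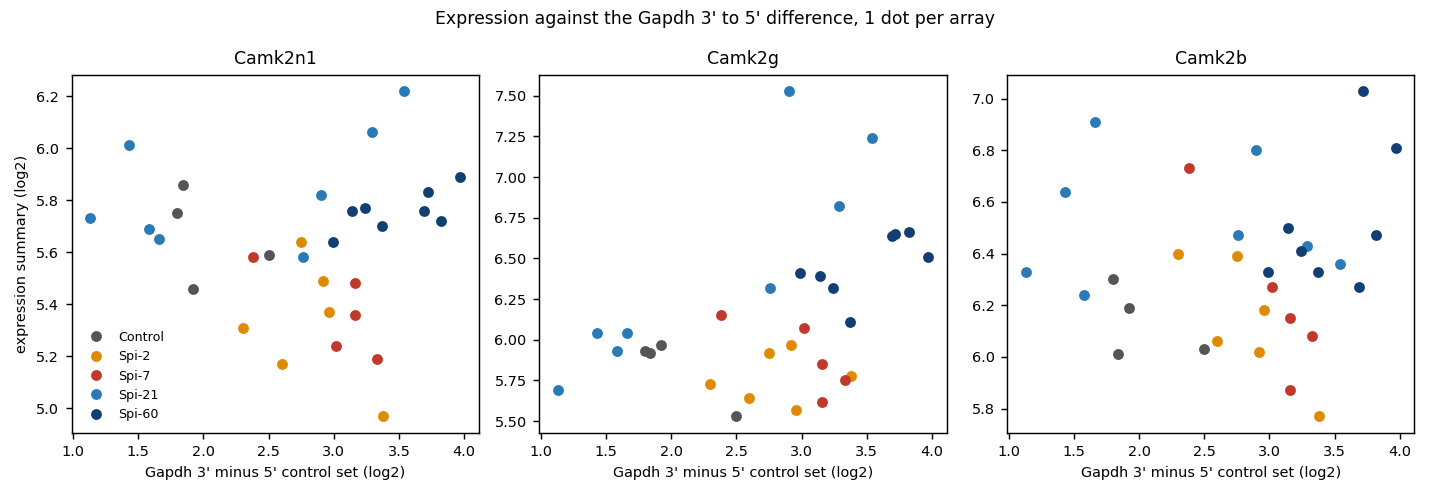
Log2 level of Camk2b, Camk2g and Camk2n1 (y axes) against the Gapdh 3′ minus 5′ difference (x axis, log2), 1 dot per array, coloured by group. The 3 Spi-21 arrays with the highest Camk2g, at 6.82 to 7.53, have Gapdh differences of 2.9 to 3.54, while the other 5 lie at 1.13 to 2.76.

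Camk2b, the beta subunit that ties CaMKII to actin, was measured by probe set 1398251_a_at, whose probes match several transcripts of the gene. Its log2 level in Control was 6.03, 6.01, 6.19 and 6.3. The lowest, median and highest levels were 5.77, 6.12 and 6.4 at day 2, and the 5 animals of day 7 had 5.87, 6.08, 6.15, 6.27 and 6.73. They were 6.24, 6.45 and 6.91 at day 21 and 6.27, 6.44 and 7.03 at day 60. In Spi-21 and in Spi-60, 7 of the 8 animals lay above the highest Control animal. The differences from Control were 0 ± 0.16 and 0.09 ± 0.17 at days 2 and 7 and 0.39 ± 0.15 and 0.38 ± 0.15 at days 21 and 60, and none passed (limma, adjusted p = 0.995, 0.863, 0.0732 and 0.0771). The F-test over the 5 groups was not passed at its threshold either (limma, adjusted p = 0.0373). Late animals, at 6.24 to 7.03 with a median of 6.45, were higher than early animals, at 5.77 to 6.73 with a median of 6.15, by 0.34 ± 0.10 (limma, adjusted p = 0.0118), although the ranges overlapped and only 4 of the 16 late animals lay above the highest early one.

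Camk2n1, the CaMKII inhibitor, had the smallest p of the members (1370853_at; F-test over 5 groups in limma, adjusted p = 0.00116). Its log2 level in Control was 5.59, 5.86, 5.46 and 5.75. At day 2 the animals had 4.97, 5.34 and 5.64 as lowest, median and highest, and at day 7 they had 5.36, 5.19, 5.48, 5.24 and 5.58. At day 21 the lowest, median and highest were 5.58, 5.78 and 6.22, and at day 60 they were 5.64, 5.76 and 5.89. Early animals thus lay within or below the Control range, with 7 of 11 under the lowest Control, and late animals within or above it, with 4 of 16 over the highest. Neither shift passed against Control. The differences at days 2, 7, 21 and 60 were -0.34 ± 0.12, -0.30 ± 0.13, 0.18 ± 0.12 and 0.09 ± 0.12 (limma, adjusted p = 0.0786, 0.238, 0.305 and 0.637). At days 2 and 7 the unadjusted p of the limma fit were 0.00922 and 0.0266. Set against each other, the late animals lay at 5.58 to 6.22 and the early animals at 4.97 to 5.64, a difference of 0.46 ± 0.08 (1.37-fold; limma, adjusted p = 0.000118). In this comparison 14 of the 16 late animals lay above the highest early one, and 9 of the 11 early animals below the lowest late one.

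Tests confined to the arrays of 1 study called none of the 8 probe sets. The F-test over Control and the early groups on their 15 arrays called 0 of 8 (5.75% of all probe sets), with limma adjusted p of 0.238 for Camk2n1, 0.816 for Camk2g and 0.922 for Camk2b. Spi-7 against Spi-2 called 0 of 8 and 0% of all, and Spi-60 against Spi-21 called 0 of 8 and 0.00774% of all. The 3 late minus early calls lie across the study boundary, and phase and study of origin cannot be told apart for them. In the order of group means, Camk2g and Camk2b ran from Spi-21 and Spi-60 at the top to Control and Spi-2 at the bottom, and Camk2n1 from Spi-21 over Spi-60 and Control to Spi-7 and Spi-2. No difference between neighbours in these orders passed the adjusted threshold. The nearest was Spi-21 over Spi-7 for Camk2g with 0.56 ± 0.21 (limma, adjusted p = 0.108).

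**Figure D3:**
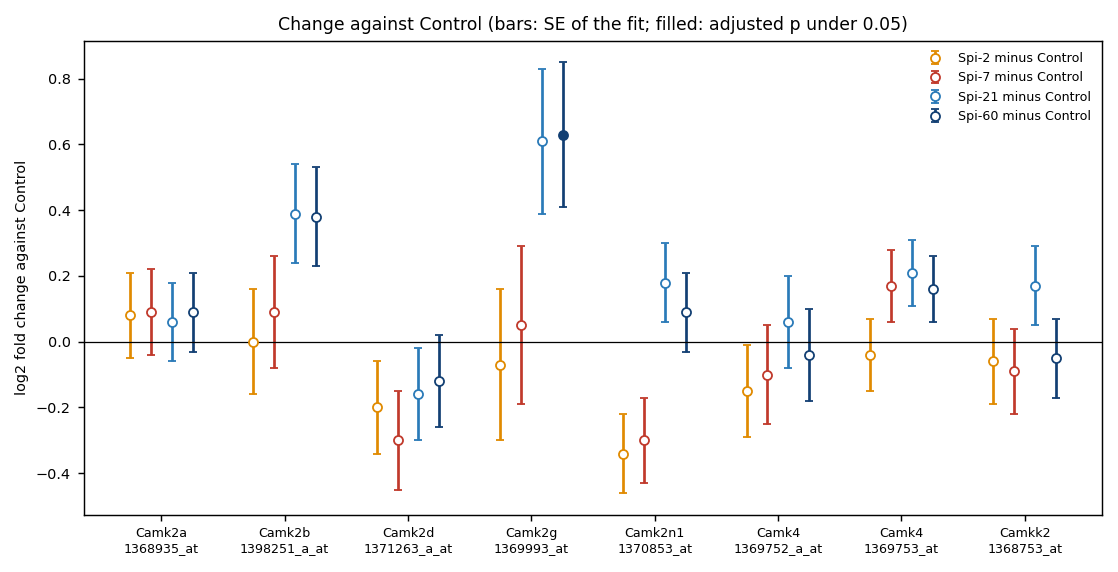
Log2 fold change against Control (axis in log2 units, bars ± SE of the limma fit) at days 2, 7, 21 and 60. Shown are the 8 probe sets of the CaM kinases and the inhibitor Camk2n1, with filled symbols for an adjusted p under 0.05. The only filled symbol is Camk2g at day 60 (0.63 ± 0.22), and Camk2n1 lies at -0.34 at day 2 and 0.18 at day 21.

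The remaining 2 subunits of CaMKII passed no test. Camk2a, the alpha subunit, which is the main form in forebrain neurons (1368935_at), lay at 4.8 to 5.51 over all 31 animals and its differences from Control were 0.08, 0.09, 0.06 and 0.09 at days 2, 7, 21 and 60 (limma, adjusted p between 0.656 and 0.831). Camk2d, the delta subunit, best known from heart muscle (1371263_a_at), lay at 4.41 to 5.4, and its 4 differences were -0.20, -0.30, -0.16 and -0.12 (limma, adjusted p = 0.443, 0.323, 0.433 and 0.609). At day 7 the 5 animals had 4.68 to 4.85 against 4.81 to 5.23 in Control, and 3 of them lay below the lowest Control. The mean levels of both probe sets, 5.12 and 4.93, were below the lower quartile of all probe sets (5.34).

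Of the kinase cascade to the nucleus, no probe set passed either. Camk4 was measured by 2 probe sets, whose differences were not alike. The first (1369752_a_at) had differences of -0.15, -0.10, 0.06 and -0.04 at the 4 days (limma, adjusted p = 0.601, 0.814, 0.785 and 0.865), and the second (1369753_at) had -0.04, 0.17, 0.21 and 0.16 (limma, adjusted p = 0.882, 0.48, 0.147 and 0.302). In the second, 12 of the 16 late animals lay above the highest Control of 5.27, and in the first 1 of 16 lay above its highest Control of 5.67. Camkk2 (1368753_at) had differences of -0.06, -0.09, 0.17 and -0.05 (limma, adjusted p = 0.843, 0.806, 0.34 and 0.824), with the widest range in Spi-21, 5.35 to 6.13.

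Around these genes stands a list of 85 other genes of the calmodulin system, of which 57 had a probe set with their name alone, 79 probe sets in all. Against Control, 7 of the 79 were called higher and 2 lower at day 2, 1 and 2 at day 7, 9 and 4 at day 21, and 13 and 3 at day 60. Of all probe sets, 3.9% were higher and 4.98% lower at day 2, 0.914% and 1.67% at day 7, 5.94% and 10.7% at day 21, and 7.2% and 9.89% at day 60. The median log2 fold change of the list was 0.02, 0.05, 0.06 and 0.05 at the 4 days. In all, 21 probe sets of 20 genes were called at any day.

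Among 10 probe sets for calmodulin-like proteins and for proteins that hold calmodulin at the membrane, 2 were called higher at day 2, none at days 7 and 21, and 1 higher at day 60. Both calls of day 2 were Marcks, a membrane substrate of protein kinase C that binds calmodulin, with 0.92 ± 0.27 (1373432_at; limma, adjusted p = 0.0273) and 0.49 (1370949_at; limma, adjusted p = 0.0491). The other 2 Marcks probe sets had 0.80 and -0.26 and did not pass. Pcp4l1, a relative of the calmodulin regulator Pcp4, rose by 0.68 at day 60 (1390227_at; limma, adjusted p = 0.0134), where its second probe set had 0.08.

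In the 18 probe sets for other CaM kinases and kinase-like proteins, higher and lower calls numbered 1 and 1 at day 2, 1 and 1 at day 7, 1 and 0 at day 21, and 2 and 0 at day 60. Dclk2, a doublecortin-like kinase of microtubules with a CaM kinase-like domain, rose at every time point, by 0.81 ± 0.14, 1.01 ± 0.14, 0.66 ± 0.13 and 1.05 ± 0.13 (1393370_at; limma, adjusted p = 0.000491, 0.000168, 0.00137 and 7.24e-06). A second Dclk2 probe set (1396890_at) had 0.13, 0.20, 0.17 and -0.04 and did not pass. Dapk3, a death-associated protein kinase, fell at days 2 and 7, with -0.90 and -0.96 (limma, adjusted p = 0.0222 and 0.0433), and had 0.38 and 0.43 at days 21 and 60 (limma, adjusted p = 0.281 and 0.222). Phkg2, a catalytic subunit of phosphorylase kinase, rose by 0.46 at day 60 (limma, adjusted p = 0.0196).

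Calcineurin, the phosphatase that calmodulin switches on, and its regulators had 10 probe sets, of which 1 was called higher and 1 lower at day 2, 0 and 1 at day 7, and 2 and 1 at each of days 21 and 60. Rcan2, an inhibitor of calcineurin, fell at all time points, with -1.28 ± 0.17, -1.03 ± 0.18, -1 ± 0.17 and -1.04 ± 0.17 (1389066_at; limma, adjusted p = 4.02e-05, 0.00192, 0.000293 and 0.000133). Its second probe set (1374235_at) had -0.26, -0.38, -0.60 and -0.14 and did not pass at days 2 and 60 (limma, adjusted p = 0.597 and 0.744) or at the others. Cabin1, another calcineurin inhibitor, rose by 0.76 at day 2, 0.47 at day 21 and 0.56 at day 60 (limma, adjusted p = 0.00168, 0.0239 and 0.00796). Nfatc4, a transcription factor that calcineurin sends to the nucleus, rose by 0.37 at day 21 and 0.43 at day 60 (1390573_a_at; limma, adjusted p = 0.00656 and 0.00175), while its second probe set had 0.04 and -0.03.

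In the 15 probe sets of other enzymes and pumps that calmodulin regulates, 1 was called higher at day 2, none at day 7, 2 higher and 1 lower at day 21, and 3 higher and 1 lower at day 60. Rasgrf2, an exchange factor for Ras, rose by 0.63 at day 21 and 0.38 at day 60 (limma, adjusted p = 0.00168 and 0.0409). Itpkc, which phosphorylates the calcium-releasing messenger IP3, rose by 0.48 at day 2, 0.33 at day 21 and 0.39 at day 60 (limma, adjusted p = 0.00411, 0.026 and 0.00772). Adcy8, an adenylyl cyclase stimulated by calmodulin, fell at days 21 and 60, with -0.52 and -0.40 (limma, adjusted p = 0.012 and 0.0472). Atp2b4, a calcium pump of the plasma membrane, rose by 0.40 at day 60 (limma, adjusted p = 0.0229).

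Substrates, partners and phosphatases of the CaM kinases had 26 probe sets, with 2 called higher at day 2, none at day 7, 4 higher and 2 lower at day 21, and 5 higher and 1 lower at day 60. Atf1, a transcription factor of the CREB family, fell at days 21 and 60, with -1.36 ± 0.27 and -1.24 ± 0.27 (limma, adjusted p = 0.00142 and 0.0023). Grin1, the obligatory subunit of the NMDA receptor, rose by 0.58 at day 60 (limma, adjusted p = 0.00583). Dlg4, the postsynaptic scaffold PSD-95, rose by 0.39 at day 60 in 1 of its 3 probe sets (1387210_at; limma, adjusted p = 0.00426), and the other 2 had 0.12 and -0.21. Camta2, a calmodulin-binding transcription activator, rose by 0.37 at day 21 and 0.35 at day 60 (limma, adjusted p = 0.00542 and 0.00686).

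With the Gapdh 3′ to 5′ difference as a covariate, 3 of the 16 pathway probe sets called at day 60 were still called (Dclk2, Dlg4 and Actn2), beside 12 of 13 at day 21, 2 of 3 at day 7 and 5 of 9 at day 2. The Gapdh ranges of Spi-60 and Control do not overlap, so the covariate cannot decide the day 60 calls. Lost calls were not always smaller differences. At day 60 the difference of Atf1 was -1.29, that of Itpkc 0.35, that of Atp2b4 0.39 and that of Strn4 0.35 in this fit, close to those without the covariate (-1.24, 0.39, 0.40 and 0.36), with larger SEs. Others were smaller, such as Rcan2 with -0.69, Cabin1 with 0.30 and Adcy8 with -0.19. Dapk3 had -0.82 at day 2 and -0.86 at day 7 in this fit (limma, adjusted p = 0.0729 and 0.148), and Rcan2 was called at days 2, 7 and 21. Without Spi-21 replicates 1 to 3, 6 of the 13 calls of day 21 were held.

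**Figure D4:**
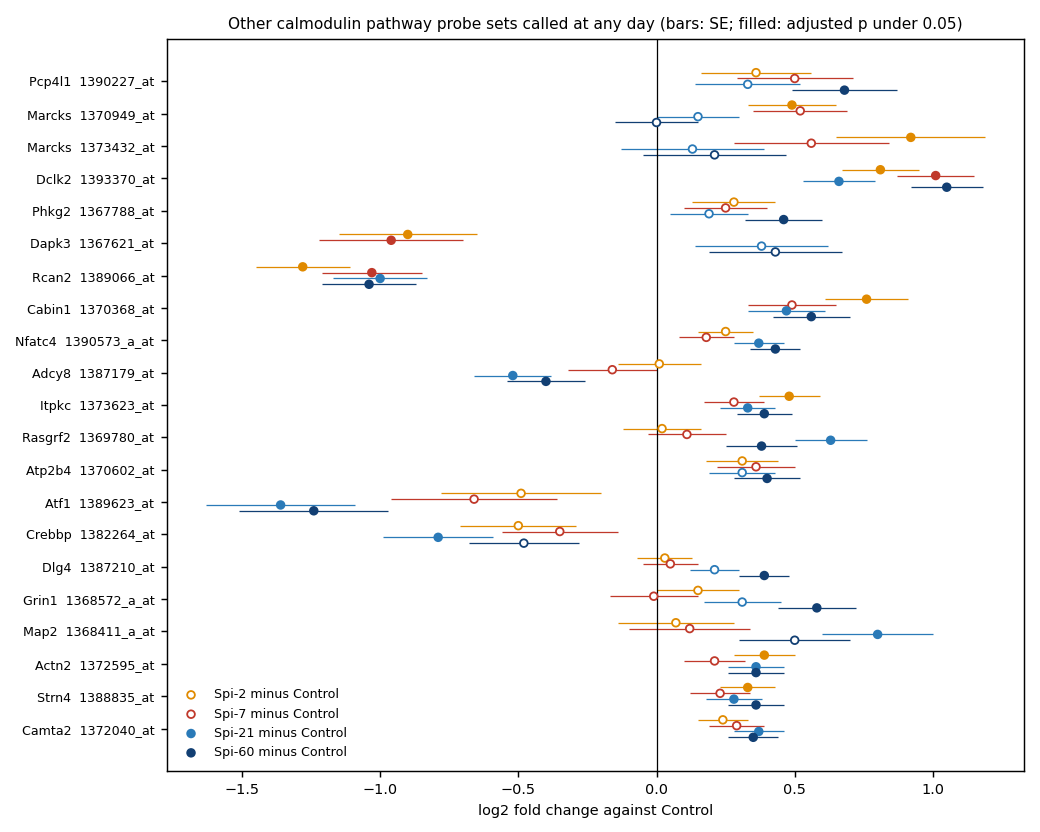
Log2 fold change against Control (x axis, log2 units, bars ± SE of the limma fit) at days 2, 7, 21 and 60 of the 21 other calmodulin pathway probe sets called at any day, with filled symbols for an adjusted p under 0.05. Dclk2 (0.66 to 1.05) and Rcan2 (-1.28 to -1) are filled at all 4 days.

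The probe sets of other named genes whose levels followed the called members most closely over the 31 arrays are given as a description, since arrays of a group share their time point and their study of origin. For Camk2g they were Ptms, encoding parathymosin (Pearson r = 0.884), Adgrl1, the latrophilin 1 receptor (r = 0.856), and Adam15, a membrane metalloproteinase (r = 0.853). For Camk2n1 they were Bsg, encoding basigin (r = 0.848), Basp1, a calmodulin-binding protein of growth cones (r = 0.82), and Acads, a mitochondrial acyl-CoA dehydrogenase (r = 0.814).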

How the data were processed

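Expression was measured in laser microdissected tail motor neurons, 1 rat per array. According to the study's methods the authors kept probe sets listed by Ensembl for the chip, compensated the background, normalized the arrays and computed RMA summaries (version not given in the sources used here), which were compensated again. The deposited values are these summaries on the log2 scale for 12919 probe sets. The raw arrays were not used. No test included the 6 control probe sets of the manufacturer. Symbols came from the platform annotation, in which 11880 of the 12913 tested probe sets carry 1 symbol, 320 several and 713 none.

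One mean per group was fitted with limma 3.58.1 in R 4.3.3, without covariates, on samples grouped by the labels. For the F-test over 5 groups the Benjamini-Hochberg false discovery rate was set at 0.02, and for contrasts (two-sided) and the F-test over Control, Spi-2 and Spi-7 at 0.05. Errors are the SE of the fit for fold changes and the SD over animals for means. The number of arrays limits the precision. The fit was tested on simulated data. Promoters were searched and figures drawn in Python 3.11.15 with matplotlib 3.10.9.

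The members, the gene lists and the alternatives were chosen with earlier results of these data known. Every member probe set is named; of the pathway list, up to 4 called probe sets with the smallest p in each subgroup are named, and Actn2, Marcks and second probe sets of named genes are given where a count or call turns on them. The alternatives were another quantile normalization, centring on array medians, a filter on dim probe sets, an intensity trend, array weights, a Gapdh 3′ covariate, fits of the compared groups alone, leaving out arrays and a block for the replicate number.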

Additional observations from a re-analysis of the deposited data

Results flagged for a closer look

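In 2 of 40 groups of animals tested, 1 animal stood apart from the rest by Dixon's criterion, where chance gives about 1 in 20. Both were Control replicate 1, with the lowest Camk2g level (5.53, next 5.92, gap over range 0.89 with a limit of 0.829 for 4 animals) and the lowest Camkk2 level (5.25, next 5.56, gap over range 0.91). Without this animal the day 60 change of Camk2g was 0.52 (limma, adjusted p = 0.159).

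The change after injury differed between the late days (21 and 60) and the early days (2 and 7) for Camk2g by 0.63, for Camk2n1 by 0.46 and for Camk2b by 0.34 (log2, late minus early, past the threshold in limma). Phase and study of origin cannot be told apart.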

How the results depend on the processing

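The late minus early differences of Camk2g, Camk2n1 and Camk2b were called in all 31 fits without 1 array (3 to 3 members). They were 0.55 to 0.68, 0.42 to 0.49 and 0.30 to 0.41. Fits without a Control array could not move these differences, since the contrast holds no Control, and changed only their SE and p. The differences were also called in the 9 other settings, with 0.41 to 0.77 for Camk2g (0.41 without Spi-21 replicates 1 to 3), 0.40 to 0.49 for Camk2n1 and 0.34 to 0.39 for Camk2b. Of these settings, the Gapdh covariate could move them little, since the early Gapdh means lie between the late ones. The F-test over 5 groups called 2 to 3 members without 1 array, and 3 with array weights or without Spi-7 replicate 5 (Camk2b added). Counts against Control were less stable. At day 21, 1 member (Camk2g) was called after further quantile normalization, after centring on medians, without dim probe sets and with the replicate block, and 0 to 1 without 1 array (Camk2g without Spi-21 replicate 5, 6, 7 or 8, Camk2b without Spi-7 replicate 5). At day 60 the count was 0 after further quantile normalization (Camk2g 0.64, limma adjusted p = 0.0536) and with the Gapdh covariate (Camk2g -0.01, adjusted p = 0.985), 2 with array weights (Camk2b added), and 0 to 1 without 1 array, where Camk2g was 0.52 to 0.68 and was called without Spi-2 replicate 4, Spi-7 replicate 5, Spi-60 replicate 3 or any Spi-21 replicate but 4. At day 2, 1 member (Camk2n1) was called with array weights and without Spi-21 replicates 1 to 3, and 0 to 1 without 1 array (1 without Spi-2 replicate 1). At day 7, 1 (Camk2n1) was called with array weights and 0 to 0 without 1 array. The cause was not tested. With the Gapdh covariate, day 60 against Control sets groups side by side whose Gapdh differences do not overlap. That setting therefore cannot decide the day 60 change. The F-test over Control, Spi-2 and Spi-7, Spi-7 against Spi-2 and Spi-60 against Spi-21 called 0 members in each setting run. Of the pathway probe sets, array weights called 9 higher and 5 lower at day 7 and 5 lower at day 2, fits of the compared groups alone 3 higher and 1 lower at day 7 and 5 higher at day 21, and the covariate 4 higher at day 2 and 3 higher and 0 lower at day 60. Without 1 array, 4 to 7 pathway sets were higher at day 2, 4 to 11 at day 21 (4 without Control replicate 2) and 8 to 14 at day 60 (8 without Control replicate 3). Over all 12913 probe sets, calls at day 60 numbered 267 with the covariate against 2207 without it, calls at day 21 numbered 680 without Spi-21 replicates 1 to 3 against 2148 with them, and array weights gave 4082 in the F-test against 2098.

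Animals with the same replicate number did not as a rule deviate together (51 pairs, r -0.33 to 0.35, median -0.04, 11 over 0.1). No pairing by number was seen, though shared handling of animals with the same number was not tested. With the replicate block, 1 member was called at day 21 and 1 at day 60 (Camk2g), and late minus early gave 3, with 0.77 for Camk2g, 0.49 for Camk2n1 and 0.35 for Camk2b. A probe set without a call is not shown to be unchanged, since 4 Control animals and dim probe sets limit what can be seen.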
